A study of Mus musculus with 17 samples.

Results

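The interleukin-1 (IL-1) family and inflammasome genes described here are 10 genes of the mouse, chosen by name: Il1b, Il1a, Il1rn, Il1r1, Il1r2, Il1rap, Il18, Nlrp3, Casp1 and Pycard. All 10 had a row among the 35285 genes of the deposited expression table. They were followed in 17 cochlear RNA sequencing libraries, each from 1 male C57BL/6J mouse aged 8 weeks at purchase and called wild type in the labels. The study's methods name the basilar membrane as the source of RNA for expression assays and for exploratory sequencing, so that the part of the cochlea sampled is not certain. The control group (3 libraries) had saline injections and no noise. The NE group (7 libraries) was exposed once, awake, to 2 h of noise at 100 dB SPL in the band from 8 to 16 kHz, and no injection is described for it in the study's methods. The brimonidine group (7 libraries) had the same exposure and intraperitoneal brimonidine, an α2-adrenergic agonist, at 1 mg/kg on the day before, the day of and the day after exposure. Cochleae were taken on the second day after exposure. The methods describe hearing tests under ketamine and xylazine, which is itself an α2-adrenergic agonist, for mice of every group before tissue was taken. No library came from unexposed mice given brimonidine, and C57BL/6J mice carry a Cdh23 variant known for early hearing loss.

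IL-1α and IL-1β, the products of Il1a and Il1b, are inflammatory cytokines that signal through a receptor of Il1r1 and Il1rap, and the pathway is held back by a receptor antagonist (Il1rn) and by a decoy receptor (Il1r2). IL-1β and IL-18 are made as precursors that caspase-1 (Casp1) cuts once a sensor such as NLRP3 and the adaptor ASC (Pycard) have assembled an inflammasome, so an mRNA level does not give the amount of active cytokine. In tissues that hold marrow or blood, neutrophils, monocytes and macrophages are known as major sources of these transcripts.

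The genes for both IL-1 ligands and the antagonist lie on chromosome 2, at 129364570 to 129371139 on the minus strand for Il1b, at 129299610 to 129309972 on the minus strand for Il1a and at 24336853 to 24351494 on the plus strand for Il1rn, in the mm10 build named in the submitters' processing notes. Il1r2 (40074079 to 40125231) and Il1r1 (40225080 to 40317257) lie on the plus strand of chromosome 1, and Casp1 (5298517 to 5307265) and Il18 (50554827 to 50581840) on the plus strand of chromosome 9. Il1rap lies on chromosome 16 (26581704 to 26730117) and Nlrp3 on chromosome 11 (59541568 to 59566956), both on the plus strand, and Pycard on the minus strand of chromosome 7 (127989708 to 127993867). The promoters of Il1b, Il1a and Il1rn are shown because Il1b and Il1a had the lowest limma p of the 10 genes between the exposed groups and Il1rn encodes the antagonist set against Il1b in a ratio. Each run is the 250 bases before a RefSeq transcription start on GRCm38.p6, written 5′ to 3′ on the strand of the gene.
Il1b, minus strand, chr2:129371140-129371389: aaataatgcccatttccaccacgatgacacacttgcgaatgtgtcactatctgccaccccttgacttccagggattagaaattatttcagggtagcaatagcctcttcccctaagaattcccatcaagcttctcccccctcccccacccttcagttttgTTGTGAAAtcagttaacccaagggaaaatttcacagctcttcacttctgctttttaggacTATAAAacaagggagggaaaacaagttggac
Il1a, minus strand, chr2:129309973-129310222: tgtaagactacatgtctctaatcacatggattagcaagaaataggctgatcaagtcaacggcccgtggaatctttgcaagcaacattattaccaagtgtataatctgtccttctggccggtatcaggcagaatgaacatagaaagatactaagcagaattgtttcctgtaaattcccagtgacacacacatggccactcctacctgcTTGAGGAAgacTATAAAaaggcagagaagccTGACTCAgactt
Il1rn, plus strand, chr2:24345041-24345290: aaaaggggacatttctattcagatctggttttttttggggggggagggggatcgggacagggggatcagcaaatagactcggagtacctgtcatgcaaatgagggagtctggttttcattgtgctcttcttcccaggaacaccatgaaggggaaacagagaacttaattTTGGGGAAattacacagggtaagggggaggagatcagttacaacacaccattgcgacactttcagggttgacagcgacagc
Capitals mark every match, on either strand, to 5 sets of letters: GGG and TTTCC split by 2 free bases for NF-kB, TTNNGNAA for C/EBP, GAGGAA for PU.1, TGANTCA for AP-1 and TATAAA for a TATA box, with N for any base. Positions count back from the base before the start, which is -1, to the first base of the match. In Il1b the capitals are a C/EBP match at -91 and a TATA box at -31. In Il1a they are a C/EBP match at -43 that contains a PU.1 match at -41, a TATA box at -32 and an AP-1 match at -12. The Il1rn window shown, which lies inside the annotated gene, has a C/EBP match at -81. The window of the earliest Il1rn start (24336610 to 24336859), not shown, has an AP-1 match at -141. A later Il1rn start, whose window overlaps the one shown, has an NF-kB match at -51, the only NF-kB match in the 14 windows of the 10 genes. Of all 32851 mouse promoter windows of this length, 1.4% held the NF-kB letters, 36.8% the C/EBP letters, 23.3% the PU.1 letters, 6.7% the AP-1 letters and 12.4% the TATA box. Besides Il1b and Il1a, Il18 held TATAAA, on the opposite strand at -175.

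Expression was given as FPKM, the fragments counted on a gene scaled by its exon length and by the fragments counted in the library, so that levels can be compared between genes. The libraries held between 14457733 and 18288854 counted fragments, and the 10 genes rested on at least 70 fragments each (Il18 in control 1) and at most 5912 (Il1b in NE 6). Control 2 stood apart from every other library, with a median Pearson correlation of log2 values with the others of 0.831 across 16416 genes, against 0.955 and 0.947 for controls 1 and 3 and 0.970 to 0.981 for the 14 exposed libraries. The summed FPKM of 13 neutrophil markers, led by S100a9, was 10301 in control 2, 45707 and 48096 in controls 1 and 3, 41784 to 67614 in the NE group and 42323 to 60072 in the brimonidine group. The sum of 12 monocyte and macrophage markers, led by Lyz2, was 2105 in control 2, 3966 and 4182 in controls 1 and 3, 3433 to 4566 in the NE group and 3837 to 5346 in the brimonidine group. The sum of 12 cerebellar and hindbrain markers was 635 in control 2, 237 and 246 in the other controls and 20.2 to 86.0 in the exposed libraries, and none of the markers of these lists was at 0 in all libraries of a group. The labels call the cells interstitial. The summed FPKM of 8 fibroblast and interstitial markers was 502 to 1072, and that of 14 cochlear markers, led by Coch, was 553 to 1368. In such bulk samples, fewer cells of a type and less RNA per cell cannot be told apart.

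Control 2 held the lowest value of all 17 libraries for 9 of the 10 genes and the highest for the remaining one, Il18. Control 3 held the highest value for Il1a, Il1rap and Nlrp3. The spread within the control group was therefore wide, and many values against control depended on which controls were included. The part of the immune and hindbrain markers in those comparisons was not tested.

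**Figure D1:**
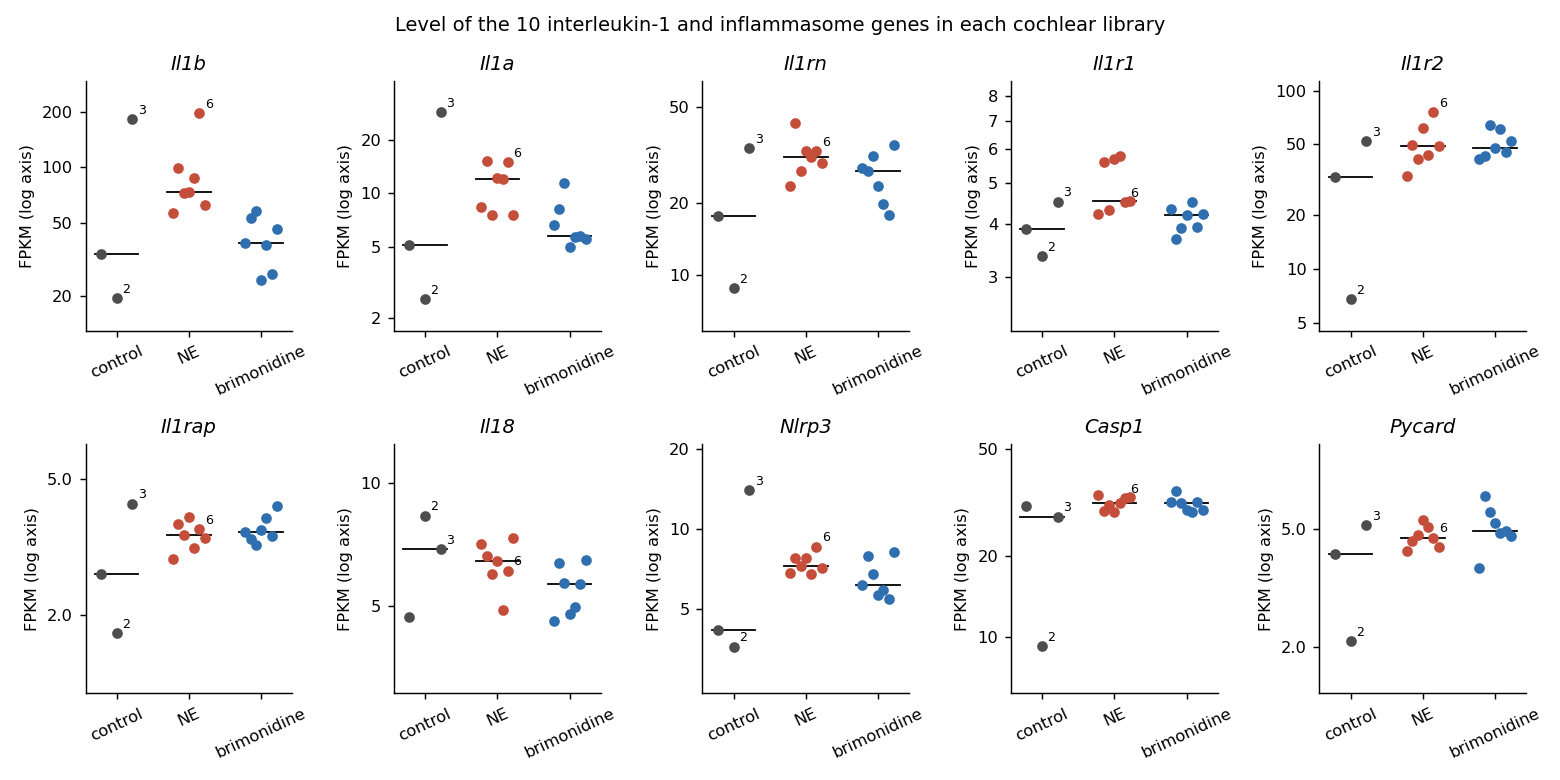
FPKM (log axis) of each of the 10 genes in the control (grey, 3 libraries), NE (red, 7) and brimonidine (blue, 7) groups, 1 point per library, with the group median as a line and controls 2 and 3 and NE 6 marked by their number. For Il1b, 6 of the 7 brimonidine libraries lie below the lowest NE library (56.4 FPKM), while the controls span 19.4 to 183 FPKM.

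Il1b was the most abundant of the 10 genes in the control and NE groups, and in all 3 controls and all 7 NE libraries it was above Il1r2, which came next. In the brimonidine group the order turned, with Il1r2 above Il1b in 6 of 7 libraries. In the NE group the order by mean FPKM was Il1b, Il1r2, Casp1, Il1rn, Il1a, Nlrp3, Il18, Il1r1, Pycard and Il1rap. Casp1 and Il1rn (31.5 ± 1.78 and 31.4 ± 6.07 FPKM, SD, n = 7) did not differ beyond their spread there, nor did Il1r1 and Pycard (4.95 ± 0.714 and 4.72 ± 0.400 FPKM, SD, n = 7). Il1b and Il1a varied more between NE libraries than the inflammasome genes did. The coefficient of variation was 51.9% for Il1b, which fell to 21.3% without NE 6, and 29.7% for Il1a, and 5.64% for Casp1, 8.47% for Pycard and 8.59% for Nlrp3.

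The comparison of the brimonidine group with the NE group asks how expression differed with brimonidine after the same noise. Since no injection is described for the NE group, the drug and its injection cannot be told apart. No gene of the 10 passed both thresholds, an adjusted p under 0.05 over all genes tested and at least a doubling or halving (absolute log2 fold change of 1). The background was 0% of the 15707 genes tested by limma, so no gene passed, and 906 genes had an unadjusted p under 0.05. Of the 10 genes, 3 had an unadjusted p under 0.05 and were lower in the brimonidine group (Il1b, Il1a and Il1r1), against 2.46% of all genes tested, and 0 were higher, against 3.3%. After rescaling by the median ratio the counts were 4 lower, against 3.17% of all genes, and 0 higher, against 2.2%. The groups overlapped for all 10 genes, and did not overlap for 0.14% of all genes tested. The median log2 fold change was -0.17 over the 10 genes and 0.01 over all genes tested.

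Il1b, which encodes IL-1β, had 56.4, 73.3 and 197 FPKM as the lowest, median and highest value in the NE group and 24.3, 39.1 and 58.1 FPKM in the brimonidine group. All 7 brimonidine libraries were below the NE mean, and 6 of them were below the lowest NE library, so that the groups overlapped only by brimonidine 3 and NE 1. The brimonidine mean was 44.0% of the NE mean, 40.8 ± 12.7 against 92.7 ± 48.1 FPKM (SD, n = 7 each). On the log2(FPKM + 1) scale this was a log2 fold change of -1.11 (SE 0.26), and limma gave an adjusted p of 0.334. The exact two-sided permutation test of Il1b alone gave p = 0.00117, where 0.00058 is the smallest it can give, and Il1b had rank 30 of 15707 by limma p. The study had itself singled out Il1b in these libraries, so this p is not independent of that choice. The study reported Il1b as raised by noise and reduced by brimonidine, with qPCR beside the sequencing, and the qPCR was not examined here. Without NE 6, the highest library, the log2 fold change was -0.91 (adjusted p = 0.334 by limma).

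Il1a, which encodes IL-1α, had 7.56, 12.1 and 15.2 FPKM in the NE group and 4.99, 5.78 and 11.4 FPKM in the brimonidine group, again as lowest, median and highest. In the brimonidine group 5 of 7 libraries were below the lowest NE library, and brimonidine 2 and 3 were inside the NE range. The log2 fold change was -0.62 (SE 0.19), with an adjusted p of 0.616 by limma and an exact permutation p of 0.0175 for this gene alone.

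Il1rn, the receptor antagonist, overlapped more widely between the groups, with 23.6, 31.0 and 43.0 FPKM in the NE group and 17.9, 27.2 and 34.8 FPKM in the brimonidine group. Only 3 of 7 brimonidine libraries were below the lowest NE library, and the log2 fold change was -0.27 (SE 0.15, adjusted p = 0.872 by limma).

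Among the receptors, the signalling chain Il1r1 was lower in the brimonidine group by a small amount, with 4.21, 4.54 and 5.80 FPKM in the NE group and 3.69, 4.20 and 4.51 FPKM in the brimonidine group. All 7 brimonidine libraries lay below the NE mean and 4 below the lowest NE library. The log2 fold change was -0.21 (SE 0.071, adjusted p = 0.661 by limma, exact permutation p = 0.0117). The decoy receptor Il1r2 had nearly equal means, 50.8 ± 8.81 FPKM in the brimonidine group and 50.6 ± 14.1 FPKM in the NE group (SD, n = 7 each). Its log2 fold change was 0.03 with a 95% interval from -0.30 to 0.36, so a change of the size seen for Il1b lay outside the interval, and its direction turned in 4 of the 14 fits that left out 1 library. For Il1rap, the accessory chain, the log2 fold change was 0.05 (95% interval -0.08 to 0.18).

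The inflammasome genes moved little between the exposed groups. Casp1 had 29.2, 31.5 and 33.7 FPKM in the NE group and 29.2, 31.7 and 34.9 FPKM in the brimonidine group, and the ranges covered each other almost entirely. The log2 fold change of -0.01 had a 95% interval from -0.11 to 0.09, the narrowest of the 10 genes. The log2 fold changes were 0.08 for Pycard (95% interval -0.10 to 0.26), -0.17 for Nlrp3 (-0.35 to 0.01) and -0.18 for Il18 (-0.36 to 0.01). Brimonidine had 5 of 7 libraries below the lowest NE library for Nlrp3 and 2 of 7 for Il18. Of the 13 neutrophil and 12 monocyte and macrophage markers, 0 passed the thresholds in this comparison, with median log2 fold changes of 0.04 and 0.06.

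**Figure D2:**
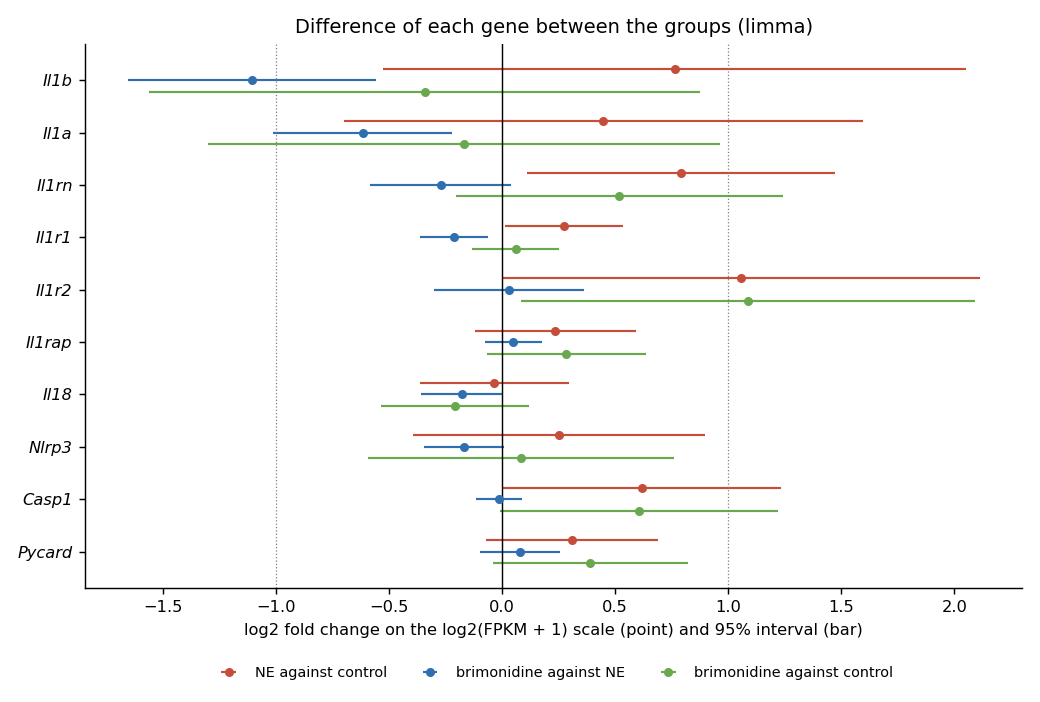
Log2 fold change of each of the 10 genes on the log2(FPKM + 1) scale in the 3 comparisons (points) with the 95% interval from limma (bars); dotted lines mark the minimum fold change of the thresholds. Between the exposed groups the Il1b interval runs from -1.65 to -0.56 and the Casp1 interval from -0.11 to 0.09, and for each of the 10 genes both intervals against the 3 controls are wider than the one between the exposed groups.

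The balance of ligand and antagonist was compared within each library, as the log2 of Il1b FPKM plus 1 over Il1rn FPKM plus 1, in which depth cancels apart from the added 1. It was 1.05, 1.22 and 2.55 in the NE group and 0.05, 0.54 and 0.93 in the brimonidine group as lowest, median and highest. Every brimonidine library was below every NE library, so the groups did not overlap. The mean was 0.60 ± 0.33 against 1.43 ± 0.51 (SD, n = 7 each), a difference of -0.83, with an exact two-sided permutation p of 0.00058, the smallest possible here, and 0.0035 after adjustment over 2 ratios in 3 comparisons. The ratio carries the same Il1b values as above and was chosen with results of these data known, so its p is no separate support for the lower Il1b.

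For the decoy over the signalling receptor, the log2 of Il1r2 FPKM plus 1 over Il1r1 FPKM plus 1 was 2.72, 3.00 and 3.80 in the NE group and 2.99, 3.24 and 3.72 in the brimonidine group. These ranges overlapped, and the difference of 0.24 had an exact permutation p of 0.176 (adjusted 0.264). Without NE 6, the NE library with the highest ratio, the difference was 0.36 (adjusted p = 0.042 by the exact permutation test), so this result depends on that library.

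**Figure D3:**
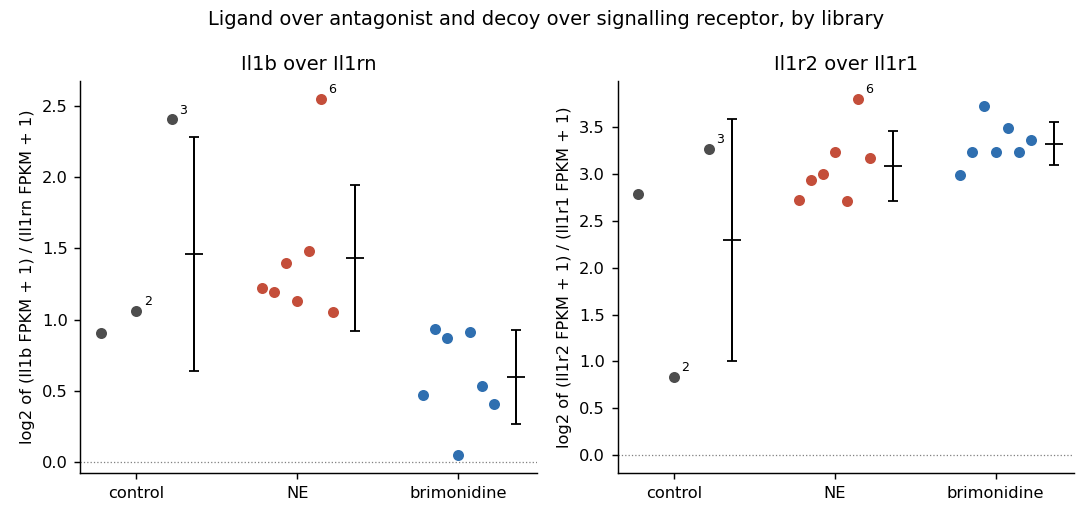
Log2 ratio of Il1b to Il1rn (left) and of Il1r2 to Il1r1 (right), each gene as FPKM plus 1, with 1 point per library and the group mean ± SD beside it, for 3 control, 7 NE and 7 brimonidine libraries. On the left, the highest brimonidine library is at 0.93 and the lowest NE library at 1.05.

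The comparison of the NE group with the control group asks what the noise changed. Of the 10 genes, 0 passed both thresholds, against 5.76% of the 15950 genes tested, of which 43 genes (0.27%) were higher and 875 lower. By an unadjusted limma p under 0.05, 4 were higher in the NE group (Il1rn, Il1r1, Il1r2 and Casp1), against 10.6% of all genes tested, and 0 were lower, against 22.3%. These shares over all genes depended on the scaling, with 16% higher and 17.8% lower after rescaling by the median ratio and 19.3% and 16.1% by quantiles, where the counts among the 10 genes were again 4 and 0. The groups did not overlap for 0 of the 10 genes, against 18.3% of all genes tested. The median log2 fold change was 0.38 over the 10 genes and -0.04 over all genes tested.

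In the controls, Il1b had 33.8, 19.4 and 183 FPKM in controls 1, 2 and 3, a 9.39-fold range that contained 6 of the 7 NE libraries. The log2 fold change of NE over control was 0.76 (SE 0.58, adjusted p = 0.378 by limma). It was 0.49 (adjusted p = 0.615) without control 1, 0.11 (adjusted p = 0.942) without control 2 and 1.69 (adjusted p = 0.029) without control 3. Il1a had the same pattern, with 5.12, 2.54 and 28.4 FPKM in controls 1, 2 and 3, which contained all 7 NE libraries. The Il1a log2 fold change of 0.45 (SE 0.52, adjusted p = 0.570 by limma) became 0.20 (adjusted p = 0.825) without control 1, -0.19 (adjusted p = 0.874) without control 2 and 1.33 (adjusted p = 0.022) without control 3.

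Il1rn had 17.6, 8.79 and 33.7 FPKM in controls 1, 2 and 3, and all 7 NE libraries were above the control mean. The log2 fold change was 0.79 (SE 0.31, adjusted p = 0.107 by limma), 0.33 without control 2 (adjusted p = 0.483) and 1.24 without control 3 (adjusted p = 0.012). Il1r2 had 32.8, 6.77 and 52.1 FPKM in controls 1, 2 and 3, and all 7 NE libraries were above the control mean of 30.5 FPKM. For Il1r2 the log2 fold change was 1.06 (SE 0.48, adjusted p = 0.151 by limma), 0.24 without control 2 (adjusted p = 0.684) and 1.63 without control 3 (adjusted p = 0.048). Without control 3, Il1b, Il1a, Il1rn and Il1r2 passed both thresholds, all 4 as higher, against 0.549% of all genes tested called higher in that fit and 5.23% in either direction. Without control 2, 0 of the 10 did, against 2.38% of all genes in either direction and 0.181% as higher.

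Casp1 had 30.8, 9.28 and 28.0 FPKM in controls 1, 2 and 3 and 29.2 to 33.7 FPKM in the NE group, and 5 of 7 NE libraries were above the highest control. Its log2 fold change of 0.62 (SE 0.28, adjusted p = 0.149 by limma) was 0.10 without control 2 (adjusted p = 0.525), 0.91 without control 1 (adjusted p = 0.045) and 0.85 without control 3 (adjusted p = 0.093). Nlrp3 had 4.14, 3.59 and 14.0 FPKM in controls 1, 2 and 3 and 6.79 to 8.58 FPKM in the NE group, which lay wholly inside the control range. For Nlrp3 the log2 fold change was 0.25 (SE 0.29, adjusted p = 0.569 by limma), 0.80 without control 3 (adjusted p = 0.00178), 0.02 without control 1 (adjusted p = 0.965) and -0.06 without control 2 (adjusted p = 0.937).

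For the remaining genes, log2 fold changes were 0.27 for Il1r1, 0.24 for Il1rap and 0.31 for Pycard, with adjusted p of 0.137, 0.326 and 0.231 by limma, and for these 3 genes all 7 NE libraries were above the control mean. Without control 2 these values were 0.19, 0.02 and 0.02 (adjusted p = 0.451, 0.963 and 0.925), and without control 3 they were 0.36, 0.48 and 0.52 (adjusted p = 0.098, 0.040 and 0.067). By quantiles they were 0.47, 0.42 and 0.49 (adjusted p = 0.0366, 0.129 and 0.116), and Nlrp3 was 0.40 (adjusted p = 0.392). A single model of all 17 libraries gave Il1r1, Il1rn and Casp1 an adjusted p of 0.0471, 0.0456 and 0.0486, at fold changes under the minimum. For Il18 it was -0.03, and the direction turned when the libraries were rescaled by the median ratio (0.04) or by quantiles (0.10). With single controls left out Il18 was -0.23 without control 1 (adjusted p = 0.212), 0.12 without control 2 (adjusted p = 0.699) and 0.0039 without control 3 (adjusted p = 0.989). Control 2, with the lowest value of the other 9 genes, had the highest Il18 (8.31 FPKM, against 4.70 and 6.88 in controls 1 and 3). Of the 13 neutrophil markers, 13 had a higher mean log2 value in the NE group (median log2 fold change 0.76), as did 12 of 12 monocyte and macrophage markers (median 0.21), and 0 of either list passed both thresholds. Without control 2, 9 of the 13 neutrophil markers were higher, with a median of 0.058, and 11 of the 12 monocyte and macrophage markers, with a median of 0.20. Of the 11 cerebellar and hindbrain markers tested, 11 passed as lower (median -3.88).

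**Figure D4:**
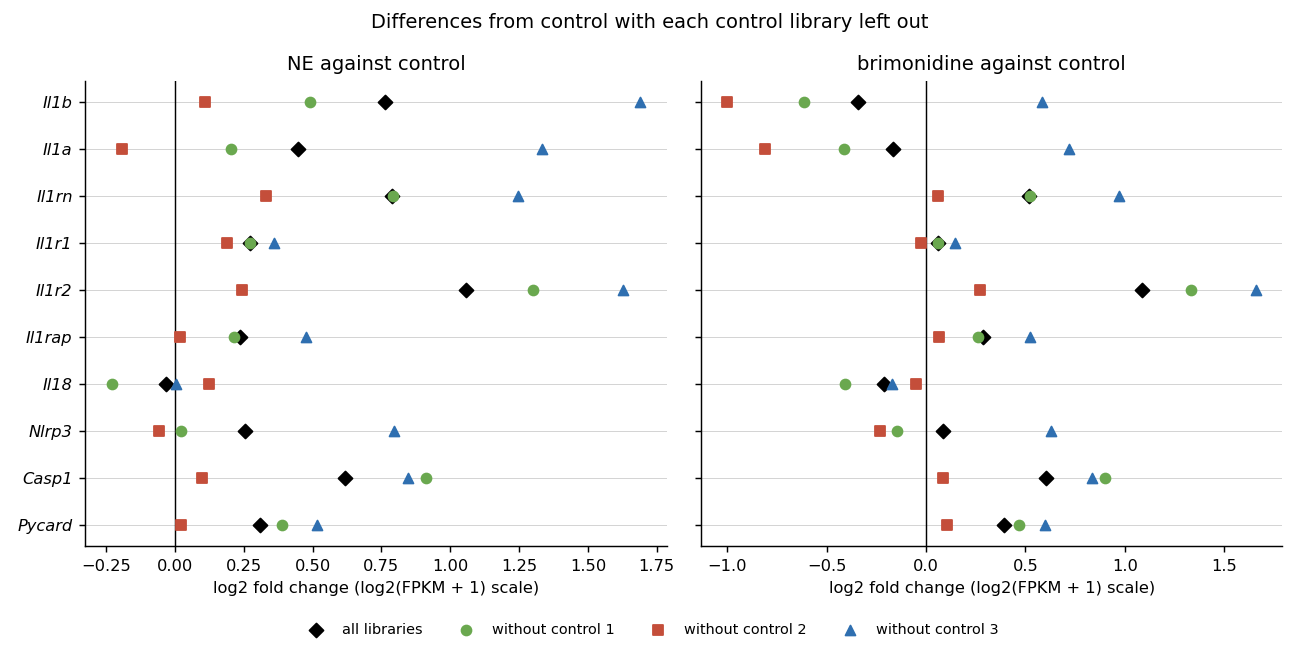
Log2 fold change of each of the 10 genes against control with all libraries (black diamonds) and without control 1 (green circles), 2 (red squares) or 3 (blue triangles), for the NE group (left) and the brimonidine group (right). For Il1b the NE value moves from 0.11 without control 2 to 1.69 without control 3, and the brimonidine value from -0.999 to 0.58.

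The brimonidine group was also compared with the unexposed controls, with the same 3 control libraries. Of the 10 genes, 0 passed both thresholds, against 5.73% of the 15947 genes tested, of which 27 genes (0.169%) were higher and 886 lower. By an unadjusted limma p under 0.05, Il1r2 was higher, 1 of 10 against 13.6% of all genes tested, and 0 were lower, against 22%. After rescaling by the median ratio the counts were 2 and 0, against 18.1% and 18.9% of all genes, and by quantiles 4 and 0, against 22.3% and 16.1%. The groups did not overlap for 0 of the 10, against 19.4% of all genes tested. The median log2 fold change was 0.18 over the 10 genes and -0.03 over all genes tested.

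All 7 brimonidine libraries were below the control mean for Il1b, Il1a and Il18 and above it for Il1r2, Il1rap and Casp1. The control means of Il1b and Il1a (78.6 and 12.0 FPKM) rested on control 3, and the log2 fold changes of -0.34 for Il1b (SE 0.55, adjusted p = 0.683) and -0.17 for Il1a (SE 0.51, adjusted p = 0.839 by limma) turned to 0.58 and 0.72 without it (adjusted p = 0.225 and 0.097). Without control 1 they were -0.61 and -0.41 (adjusted p = 0.487 and 0.620), and without control 2 -0.999 and -0.81 (adjusted p = 0.265 and 0.316). Il1r2 had a log2 fold change of 1.09 (SE 0.45, adjusted p = 0.115 by limma), which was 0.27 without control 2 (adjusted p = 0.423). It passed both thresholds without control 3 (1.66, adjusted p = 0.031), where 0.482% of all genes passed as higher and 5.84% in either direction. It also did so when all 17 libraries were fitted in 1 model (1.09, adjusted p = 0.047), where 0.251% passed as higher and 5.9% in either direction. The log2 fold changes were 0.52 for Il1rn, 0.61 for Casp1 and 0.39 for Pycard, with adjusted p of 0.275, 0.147 and 0.176 by limma. Without control 2 they were 0.059, 0.085 and 0.10 (adjusted p = 0.919, 0.530 and 0.709). Il1rn was 0.97 without control 3 (adjusted p = 0.0447), Casp1 was 0.90 without control 1 (adjusted p = 0.0404) and Pycard was 0.60 without control 3 (adjusted p = 0.0672).

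For Il1rap the log2 fold change was 0.28, and it was 0.066 without control 2 (adjusted p = 0.792) and 0.53 without control 3 (adjusted p = 0.0212 by limma). Nlrp3 had 0.08 with all libraries, -0.15 without control 1 (adjusted p = 0.761), -0.23 without control 2 (adjusted p = 0.696) and 0.63 without control 3 (adjusted p = 0.0238), so its direction turned in 2 of these 3 fits. Il18 had -0.21 with all libraries, -0.41 without control 1 (adjusted p = 0.0420) and -0.051 without control 2 (adjusted p = 0.863). For Il1r1 the value was 0.06, and it lay between -0.024 and 0.15 with 1 control left out. By quantiles the values were 0.47 for Il1rap, 0.23 for Nlrp3, -0.078 for Il18, 0.26 for Il1r1 and -0.031 for Il1a, with adjusted p of 0.0733 or more. Against control, the mean log2 value was higher in the brimonidine group for 13 of 13 neutrophil markers (median log2 fold change 0.75) and 12 of 12 monocyte and macrophage markers (median 0.31), of which 0 passed both thresholds, and 11 of the 11 cerebellar and hindbrain markers tested passed as lower (median -3.78). Without control 2, 10 of the 13 neutrophil markers were higher, with a median of 0.14, and the medians were 0.28 for the monocyte and macrophage and -3.34 for the hindbrain markers. Their part in these values was not tested.

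The log2 ratio of Il1b to Il1rn was 0.91, 1.06 and 2.40 in controls 1, 2 and 3, which overlapped both exposed groups. Its difference from control was -0.03 in the NE group (exact permutation p = 0.967, adjusted 0.967) and -0.86 in the brimonidine group (exact permutation p = 0.05, adjusted 0.15). Without control 3 these differences were 0.45 and -0.39. The log2 ratio of Il1r2 to Il1r1 was 2.79, 0.83 and 3.27 in controls 1, 2 and 3, and differed from control by 0.78 for NE and by 1.03 for brimonidine (exact permutation p = 0.317 and 0.0833, adjusted 0.38 and 0.167). Without control 2 they were 0.054 and 0.30. With 7 libraries against 3, the exact test cannot give a p below 0.0167.

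Within the exposed groups, libraries with more Il1b also had more Il1a and Nlrp3. After the group mean was removed from each of the 14 exposed libraries, the deviations of Il1b and Il1a in log2(FPKM + 1) had Pearson's r = 0.76 and Spearman's rho = 0.75 (permutation p = 0.0011 and 0.003, adjusted over 9 genes 0.0081 and 0.02). For Il1b and Nlrp3, r was 0.72 and rho 0.73 (permutation p = 0.0018 and 0.006, adjusted 0.0081 and 0.02). Without NE 6 and brimonidine 4, the libraries farthest from the Il1b median, r was 0.75 for Il1a and 0.67 for Nlrp3. Within the NE group alone r was 0.76 for Il1a and 0.81 for Nlrp3, and within the brimonidine group 0.77 and 0.78.

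The antagonist Il1rn had r = 0.59 and rho = 0.73 with Il1b (permutation p = 0.031 and 0.0068, adjusted 0.07 and 0.02), and r = 0.76 without the same 2 libraries. For Il1r2, r was 0.62 and rho 0.48 (permutation p = 0.031 and 0.093, adjusted 0.07 and 0.21), and r fell to 0.42 without them. The other 5 genes had r between -0.01 for Il1r1 and 0.24 for Pycard, with adjusted permutation p of 0.72 or more for r and 0.62 or more for rho. Casp1, whose product cuts IL-1β, had r = 0.15. These values are not particular to the 10 genes, since Il1a had only rank 287 and Nlrp3 rank 504 among the 15707 genes ordered by r with Il1b.

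The 5 genes most like Il1b by this measure, given as a description over the same 14 libraries, were Trappc4 (r = 0.93), a subunit of a vesicle tethering complex, Cd14 (r = 0.93), a co-receptor for bacterial lipopolysaccharide on myeloid cells, Junb (r = 0.92), a subunit of the AP-1 transcription factor, Rpsa-ps2 (r = 0.92), a ribosomal protein pseudogene, and Cox6b1 (r = 0.91), a subunit of cytochrome c oxidase. Rpsa-ps2 may share reads with its parent gene and is uncertain. Among these 5, the mean of Cd14 was lower in the brimonidine group, with 53.8 ± 14.3 against 89.0 ± 25.7 FPKM in the NE group (SD, n = 7 each), a log2 fold change of -0.71 (SE 0.19, adjusted p = 0.496 by limma), which did not pass the thresholds. Junb had 50.3 ± 7.92 against 63.3 ± 16.7 FPKM (SD, n = 7 each), a log2 fold change of -0.30 (SE 0.14, adjusted p = 0.861 by limma), which did not pass either. For Trappc4, Rpsa-ps2 and Cox6b1 the log2 fold changes were 0.01, 0.0012 and -0.09. In the controls Cd14 was 47.4, 20.4 and 126 FPKM in controls 1, 2 and 3, the same order as Il1b, Trappc4, Junb and Rpsa-ps2 but not Cox6b1.

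**Figure D5:**
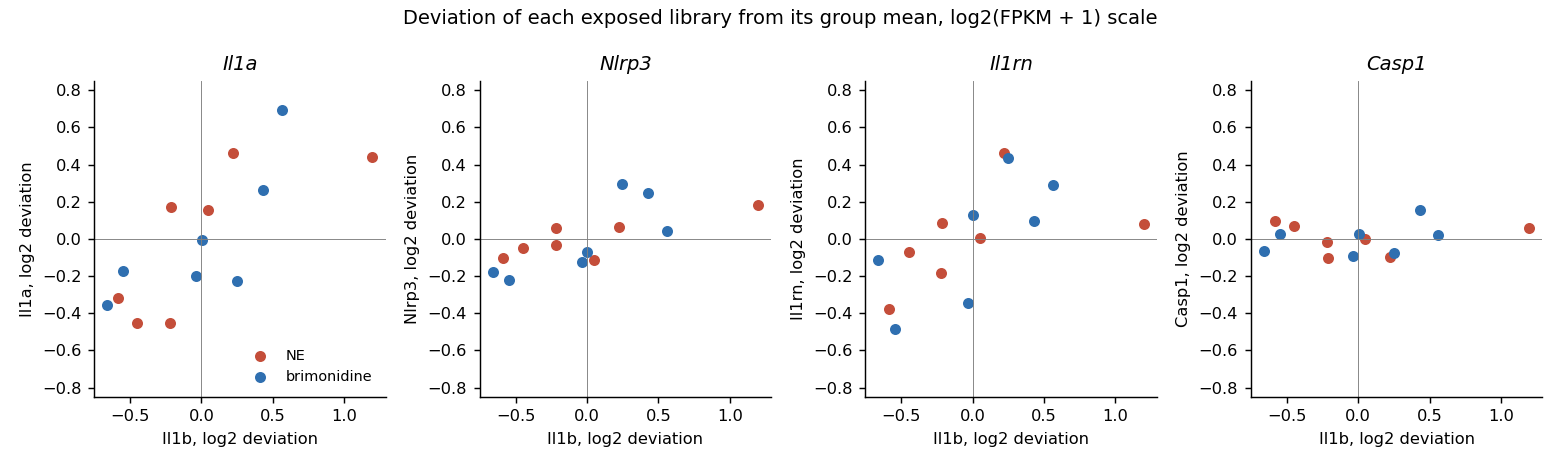
Deviation of each of the 14 exposed libraries (NE red, brimonidine blue) from its group mean in log2(FPKM + 1), for Il1b on the x axis and Il1a, Nlrp3, Il1rn and Casp1 on the y axes. Il1a, Nlrp3 and Il1rn rise with Il1b (r = 0.76, 0.72 and 0.59) and Casp1 stays within a narrow band (r = 0.15), with NE 6 at the far right.

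A list of 51 other genes of the pathway was written from knowledge of it, of which 50 had a row and 41 were tested. The ligands Il1f5, Il1f6 and Il1f8, also named Il36rn, Il36a and Il36b, the receptor genes Il1rapl1 and Il1rapl2 and the sensors Nlrp1b, Naip1, Nlrp6 and Nlrp10 did not reach 1 FPKM in 3 libraries of any comparison. In the NE group against control, 1 of the 41 passed both thresholds, Gbp2, which was higher, against 0.27% of all genes tested called higher and 5.76% in either direction. By an unadjusted limma p under 0.05, 15 were higher, against 10.6% of all genes, and 1 was lower, against 22.3%. After rescaling by the median ratio, 21 were higher, against 16%, and by quantiles 20, against 19.3%. In the brimonidine group against control the counts were 1, again Gbp2 and higher (against 0.169% called higher and 5.73% in either direction), 17 higher (against 13.6%) and 1 lower (against 22%), with 21 higher after rescaling by the median ratio (against 18.1%) and 25 by quantiles (against 22.3%). Between the exposed groups 0 of the 41 passed, and 4 were higher and 4 lower by an unadjusted limma p under 0.05, against 3.3% and 2.46% of all genes, and 1 and 5 after rescaling by the median ratio, against 2.2% and 3.17%. The median log2 fold changes of the 41 genes were 0.33, 0.37 and 0.02 in the order NE with control, brimonidine with control and brimonidine with NE.

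Gbp2, an interferon-inducible GTPase that helps inflammasome activation by bacteria, had 34.3, 9.53 and 21.3 FPKM in controls 1, 2 and 3, 32.5, 42.5 and 83.8 FPKM in the NE group and 28.5, 39.5 and 52.3 FPKM in the brimonidine group. Control 1 lay inside the range of both exposed groups, and controls 2 and 3 below them. Gbp2 rose in the NE group by a log2 fold change of 1.37 (SE 0.38, adjusted p = 0.0366 by limma) and in the brimonidine group by 1.00 (SE 0.30, adjusted p = 0.0462). Without control 2 these were 0.90 and 0.53 (adjusted p = 0.179 and 0.143), without control 3 1.44 and 1.07 (adjusted p = 0.0685 and 0.0709), and the calls were lost. The NE call was also lost without any 1 of NE 1, 2, 3, 4, 5 and 7, and the brimonidine call without any 1 of brimonidine 1 to 6.

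With no minimum fold change, 4 of the 41 genes (Gbp2, Gbp5, Casp8 and Aim2) were higher in the NE group by an adjusted p under 0.05, against 2.12% of all genes tested. In the brimonidine group 5 were (Gbp2, Casp8, Aim2, Irak4 and Naip5), against 3.47%. Casp8, which encodes a caspase that can also cut IL-1β, rose in the NE group by a log2 fold change of 0.51 (adjusted p = 0.0382 by limma) and in the brimonidine group by 0.53 (adjusted p = 0.0349), and its groups did not overlap in either comparison, as for 18.3% and 19.4% of all genes. Both held without control 2, at 0.26 (adjusted p = 0.0202) and 0.28 (adjusted p = 0.0299). The DNA sensor Aim2 rose likewise by 0.42 and 0.49 (adjusted p = 0.0447 and 0.0264), and neither held without control 2 (adjusted p = 0.185 and 0.0948) or without control 3 (adjusted p = 0.101 and 0.0663). The kinase Irak4, which acts directly below the IL-1 receptor, rose in the brimonidine group by 0.57 (adjusted p = 0.0482), and its NE value was 0.45 (adjusted p = 0.105). Without control 2 these were 0.26 (adjusted p = 0.0257) and 0.14 (adjusted p = 0.310), and without control 1 the NE value was 0.61 (adjusted p = 0.0423). Naip5, a sensor of bacterial flagellin, rose in the brimonidine group by 0.55 (adjusted p = 0.0305) and had 0.40 in the NE group (adjusted p = 0.115). Without control 2 these were 0.31 (adjusted p = 0.0514) and 0.16 (adjusted p = 0.498), and without control 1 the NE value was 0.57 (adjusted p = 0.0339). The inhibitory adaptor Tollip had -0.25 and -0.19 (adjusted p = 0.0580 and 0.0863), and the alarmin Il33 -0.12 and -0.28 (adjusted p = 0.723 and 0.247 by limma). Without control 2, Tollip had -0.18 and -0.12 (adjusted p = 0.195 and 0.247), and Il33 0.063 and -0.10 (adjusted p = 0.916 and 0.750).

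Gbp5, another interferon-inducible GTPase, was added to the named genes after its values were seen. It had 4.43, 1.75 and 4.00 FPKM in controls 1, 2 and 3, 4.95, 6.08 and 10.1 FPKM as lowest, median and highest in the NE group and 4.00, 4.73 and 6.07 FPKM in the brimonidine group. All 7 NE libraries were above the highest control, while the brimonidine libraries overlapped both other groups. Gbp5 rose in the NE group by a log2 fold change of 0.88 (SE 0.25, adjusted p = 0.0433 by limma), which was 0.57 without control 2 (adjusted p = 0.205) and 1.00 without control 3 (adjusted p = 0.0567). In the brimonidine group it was 0.48 over control (adjusted p = 0.102) and -0.40 against NE (SE 0.14, adjusted p = 0.706 by limma, exact permutation p = 0.0186).

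Between the exposed groups, the smallest p among these genes was that of Nfkbiz, which encodes an atypical IκB protein induced by IL-1. It had 15.0, 17.8 and 24.8 FPKM in the NE group and 12.2, 14.6 and 15.2 FPKM in the brimonidine group, which overlapped slightly. Its log2 fold change was -0.35 (SE 0.084, adjusted p = 0.400 by limma, exact permutation p = 0.00175). In controls 1, 2 and 3 Nfkbiz was 12.2, 7.19 and 35.6 FPKM, the same order as Il1b, Il1a and Cd14. For Il1rl2, the receptor for IL-36 ligands, the value was -0.18 (adjusted p = 0.633 by limma), and Irak4 and Map3k7, a kinase of the same route, had 0.12 and 0.11 (adjusted p = 0.710 and 0.857).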

How the data were processed

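Cochlear RNA of 17 mice was sequenced by the authors from stranded mRNA libraries on an Illumina instrument. The submitters' processing notes name Trimmomatic, HISAT2, HTSeq, Cufflinks and the mm10 build. Versions and annotation are not given in the sources used here. The authors deposited FPKM values, which are not counts. The positions of the 10 genes matched GENCODE M21, and with its exon lengths their values came out as whole fragments within 8.6e-05. Libraries were grouped by the labels. Nothing states separate litters or batches, so p-values measure only the spread between these libraries.

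A gene was tested where 3 or more of the compared libraries reached 1 FPKM. Each pair of groups had its own limma model (version 3.58.1, R 4.3.3, lmFit with the trend option of eBayes) of log2(FPKM + 1), a scale that understates changes of low genes, and p-values were adjusted by Benjamini-Hochberg over the whole table. Single genes and ratios were compared by exact two-sided permutation tests in scipy 1.17.1, and correlations by 100000 permutations within groups. The fit was also run on simulated counts with planted changes, 1 small spread for all genes and no library standing apart. That run does not show how the fit behaves with the wide spread of these controls. Named were the 10 genes, other pathway genes called or, for each comparison, the 2 rising and 2 falling genes of lowest p, the 5 genes most like Il1b, and the most abundant gene of a marker list. Gbp5 was added after its values were seen. The genes, lists, ratios and tests were chosen with earlier results of these data known. Sequences are from RefSeq (GRCm38.p6), which matched 10 of 10 genes. Alternatives were a pseudocount of 0.1, no filter, 2 other scalings, all 17 libraries in 1 model, a replicate block, limma's voom on the recovered fragments, no minimum fold change and each library left out.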

Additional observations from a re-analysis of the deposited data

Results flagged for a closer look

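By Dixon's criterion at the 95% level, NE 6 stood outside the other NE libraries in 2 of the 24 group-wise checks made on the 10 genes and both ratios in the NE and brimonidine groups, and chance alone flags about 1 in 20. Il1b was at 197 FPKM in NE 6, where the next NE library had 99.5 FPKM, a gap of 0.693 of the range. The log2 ratio of Il1b to Il1rn was 2.55 in NE 6, where the next NE library had 1.48, a gap of 0.717 of the range. NE 6 also had the highest summed FPKM of the 13 neutrophil markers of all libraries (67614). The part of these markers in its Il1b level was not tested. Groups of 3, such as the controls, were not checked in this way.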

How the results depend on the processing

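Between the exposed groups, 0 of the 10 genes and 0 of the 41 pathway genes passed both thresholds under every alternative run, and no alternative turned the direction for Il1b, Il1a, Il1rn or Il1r1. For Il1r2, 1 library left out at a time gave -0.060 to 0.13, and for Casp1 -0.039 to 0.00281. Against control, the 10 genes gave 0 to 4 calls for NE and 0 to 1 for brimonidine with 1 library left out, and 1 for brimonidine with all 17 libraries in 1 model. The pathway genes gave 0 to 3 and 0 to 2 with 1 left out. For NE they gave 2 with a pseudocount of 0.1, with quantiles or with voom, 0 with no filter and 4 with no minimum fold change. For brimonidine they gave 0 with no filter and 5 with no minimum fold change. With 1 library left out, NE with control gave -0.19 to 1.33 for Il1a, -0.23 to 0.12 for Il18 and -0.060 to 0.80 for Nlrp3, and brimonidine with control gave -0.999 to 0.58 for Il1b, -0.81 to 0.72 for Il1a, -0.024 to 0.15 for Il1r1 and -0.23 to 0.63 for Nlrp3. Il18 in NE with control was 0.044 after rescaling by the median ratio and 0.10 by quantiles. The log2 ratio of Il1b to Il1rn in NE with control was -0.30 to 0.45, and that of Il1r2 to Il1r1 between the exposed groups 0.18 to 0.36. With a library left out, the 10 genes gave a call only without control 3. Without control 2, 368 genes in all passed for NE and 468 for brimonidine, against 918 and 913 with it. The cause of these shifts was not tested.

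Replicate numbers do not pair the libraries: correlations of same-numbered deviations were -0.221 to 0.0832. With the replicate block, 0 genes in all passed for NE and 236 for brimonidine against control, and pathway calls against control were 0 for NE and 0 for brimonidine. Il18 in NE with control was then 0.014, and Il1a in brimonidine with control was 0.15. The paired difference of the Il1b to Il1rn ratio between the exposed groups was -0.83 (adjusted p = 0.0938 by an exact sign-flip permutation, the smallest such a test of 7 pairs can give after adjustment over 6). The ratio was lower in 7 of 7 numbered pairs. Because every brimonidine library was below every NE library, any pairing would give this count and this p, so they add nothing to the unpaired test.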
